A study of Mus musculus with 8 samples.

Results

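The genes described here encode the subunits of the adaptor protein complexes AP-1 to AP-5 and the vacuolar protein sorting (Vps) proteins, measured by RNA sequencing of mouse lenses at embryonic day 14.5. They were taken as every row whose mouse symbol is Ap1 to Ap5 followed by a subunit letter and a digit, or Vps followed by a digit, with at least 10 counts in at least 4 of the 8 libraries. This gave 65 of the 43432 gene IDs, 31 named Ap and 34 named Vps, of which 62 are protein-coding genes and 3 are processed pseudogenes (Ap3m1-ps, Ap3s1-ps1 and Ap3s1-ps2). All 65 rows with a matching symbol met the count minimum. The set was picked because these families were lower in the Mettl3 CKO lenses, so the differences between genotypes given for its members are a description of the values that chose them and carry no test.

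The groups were 4 control libraries and 4 libraries labelled Mettl3 CKO, each with replicates a to d. Mettl3 encodes the catalytic subunit of the complex that writes N6-methyladenosine on messenger RNA, and CKO commonly stands for a conditional knockout. The labels name no Cre driver, strain or control genotype, do not give the number of animals or lenses behind each library, and state the same tissue and age for both groups. Polyadenylated RNA was counted per gene, with between 19110170 and 56098211 total counts per library, and levels are given as CPM, read counts scaled to a common library size.

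Adaptor complexes are heterotetramers that pick transmembrane cargo at a membrane and package it into a vesicle: AP-2 at the plasma membrane, AP-1 at the trans-Golgi network and endosomes, AP-3 on endosomes towards lysosomes and related organelles, AP-4 at the trans-Golgi network and AP-5 on late endosomes. The Vps genes were named after yeast mutants that missorted proteins of the vacuole, and they form the retromer, the tethering complexes HOPS, CORVET, GARP and EARP, the ESCRT machinery and the VPS13 lipid transfer proteins. A lens fiber cell, the cell that makes up most of the lens, places large amounts of membrane protein in its surface and later degrades its organelles.

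Promoter sequences are shown first for the members with the lowest and the highest fold change past the threshold used below, Ap3b2 and Vps18, and for the 3 members whose promoters hold a palindromic form of the CLEAR element, which is found at many lysosomal genes and extends the E-box CACGTG by a pair of bases on each side. RefSeq promoters of build GRCm38.p6, reaching from 250 bases before to 50 bases after a transcription start, were matched by symbol for 47 of the 65 members. The Ap3b2 promoter, on the minus strand at chr7:81493876-81494175, held a GC box (GGGCGG) and none of the other motifs searched, which were the palindrome, the E-box, the ETS-type motif CCGGAAG, the NRF1-type and CRE palindromes, the CCAAT box (spelled as its name) and the TATA box (TATAAA). The Vps18 promoter, on the plus strand at chr2:119288492-119288791, held a GC box and the ETS-type motif, which is set in capitals; all sequences read 5′ to 3′ along the gene.
Ap3b2 promoter: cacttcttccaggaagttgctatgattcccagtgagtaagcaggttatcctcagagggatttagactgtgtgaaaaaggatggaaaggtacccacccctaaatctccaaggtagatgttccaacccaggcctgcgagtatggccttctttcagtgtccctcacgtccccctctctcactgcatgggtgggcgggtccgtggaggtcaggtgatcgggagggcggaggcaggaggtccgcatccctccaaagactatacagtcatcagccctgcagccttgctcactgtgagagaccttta
Vps18 promoter: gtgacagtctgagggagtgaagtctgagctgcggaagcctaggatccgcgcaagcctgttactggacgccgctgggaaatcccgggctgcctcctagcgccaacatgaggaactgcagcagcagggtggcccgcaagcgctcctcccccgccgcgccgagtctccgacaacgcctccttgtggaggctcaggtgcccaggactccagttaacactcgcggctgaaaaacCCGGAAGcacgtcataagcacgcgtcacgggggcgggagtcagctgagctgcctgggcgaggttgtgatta
Windows of 30 bases around the palindrome, with its letters in capitals, lay at chr2:130424290-130424319 (plus strand) for Vps16, at chr10:62486970-62486999 and chr10:62486732-62486761 (minus strand) for 2 alternative promoters of Vps26a, and at chr5:123573010-123573039 (minus strand) for Vps33a.
Vps16: aggcggcctcGTCACGTGACcccgaagggc
Vps26a, first promoter: cgcacggctcGTCACGTGACaactagctct
Vps26a, second promoter: atggcctacgGTCACGTGACgggcggcggg
Vps33a: tgaacgtcccGTCACGTGACgcaggcggcg

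The palindrome, searched on both strands, was present in 7.69% of the 52 promoters of members and in 0.33% of all 32851 RefSeq promoters of the table, or 0.61% of the 14092 promoters of tested protein-coding genes. Its core, the E-box CACGTG, which lies inside the palindrome, was found in 15.38% of member promoters, 7.15% of all promoters and 9.46% of those of tested genes. The ETS-type motif was found in 32.69% of member promoters, 8.86% of all promoters and 15.81% of those of tested genes, at 15 member genes that included Vps18, Ap1s2, Ap5m1 and Vps52. The NRF1-type palindrome was at none of the 52 member promoters, 0.97% of all promoters and 1.87% of those of tested genes. The CRE palindrome was at 1.92% of member promoters (Ap2b1), 1.79% of all promoters and 2.87% of those of tested genes. The GC box was at 59.62% of member promoters and 60.55% of those of tested genes, the CCAAT box at 23.08% and 37.45%, and the TATA box at 5.77% and 7.28%. The 3 genes with the palindrome, Vps16, Vps33a and Vps26a, had log2 fold changes of -0.18, 0.11 and 0.11. A match of letters is a description and not a bound site.

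Mettl3 itself had 28.4, 25.4, 23.8 and 21.4 CPM in control replicates a to d and 13.4, 15.9, 8.11 and 12.2 CPM in CKO replicates a to d, a log2 fold change of -1.02 ± 0.15, so all 4 CKO libraries lay below all 4 controls and residual transcript was counted in each. The labelled tissue carried its markers: 10 lens fiber genes, crystallins included, summed to between 159700 and 196800 CPM in controls and between 124400 and 173100 CPM in CKO libraries, and 1 of the 10 (Lim2) was called lower. Of 6 macrophage genes 3 (C1qa, C1qb and C1qc) were called higher, and the list summed to between 27.1 and 35.4 CPM in controls and between 37.9 and 87.0 CPM in CKO. Of 6 lens epithelium genes 3 (Pdgfra, Itga6 and Npnt) were called lower, while the sum, 1168 to 1619 CPM in controls and 1368 to 1563 CPM in CKO, overlapped. Markers of retina (6.79 to 64.8 CPM in controls, 14.7 to 139.5 CPM in CKO), endothelium and pericytes, pigment cells, mesenchyme and erythroid cells did not pass the threshold for any gene, and their summed levels overlapped between genotypes. The median log2 fold change of the tested genes was -0.30 for lens fiber, -0.43 for lens epithelium, 0.81 for macrophage and 2.01 for retina. It was 0.09 for endothelium and pericytes, 1.57 for pigment cells, -0.61 for mesenchyme and -0.44 for erythroid cells. Over all genes tested 4.01% were called lower and 6.5% higher. No listed marker was at 0 in all 8 libraries. The part of these cell types in the values below was not tested, and in bulk RNA fewer cells of a type and less RNA per cell cannot be told apart.

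Most members had lower values in CKO lenses, by small amounts. A fit across 16241 genes (edgeR's quasi-likelihood test with genotype and the replicate pair, a with b or c with d, as terms; a gene was called at a Benjamini-Hochberg adjusted p under 0.05) included 64 members; Ap1m2 had too few counts. The fitted log2 fold change of CKO over control was below 0 for 49 of the 64 and above 0 for 15, against 53.1% of all tested genes below 0. Its median was -0.18 over the members, with quartiles of -0.35 and -0.04, and -0.03 over all genes. Of the 64, 11 were called lower and 1 higher, beside 4.01% of all genes called lower and 6.5% called higher, and 52 were not called. The rule used this contrast, so nothing is read from these counts. Values after ± are the SD over the 4 libraries of a genotype for CPM and an SE for log2 fold changes. That SE is the absolute log2 fold change divided by the square root of the F statistic of its test. The 11 were Ap3b2, Vps13b, Vps45, Ap1s2, Vps13a, Vps33b, Ap2m1, Vps52, Vps8, Ap5m1 and Ap3s1, and the 1 was Vps18. In 17 members every CKO library lay below every control, against 7.38% of all genes, and in 2 (Vps18 and Vps37d) every CKO library lay above, against 8.96%.

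**Figure D1:**
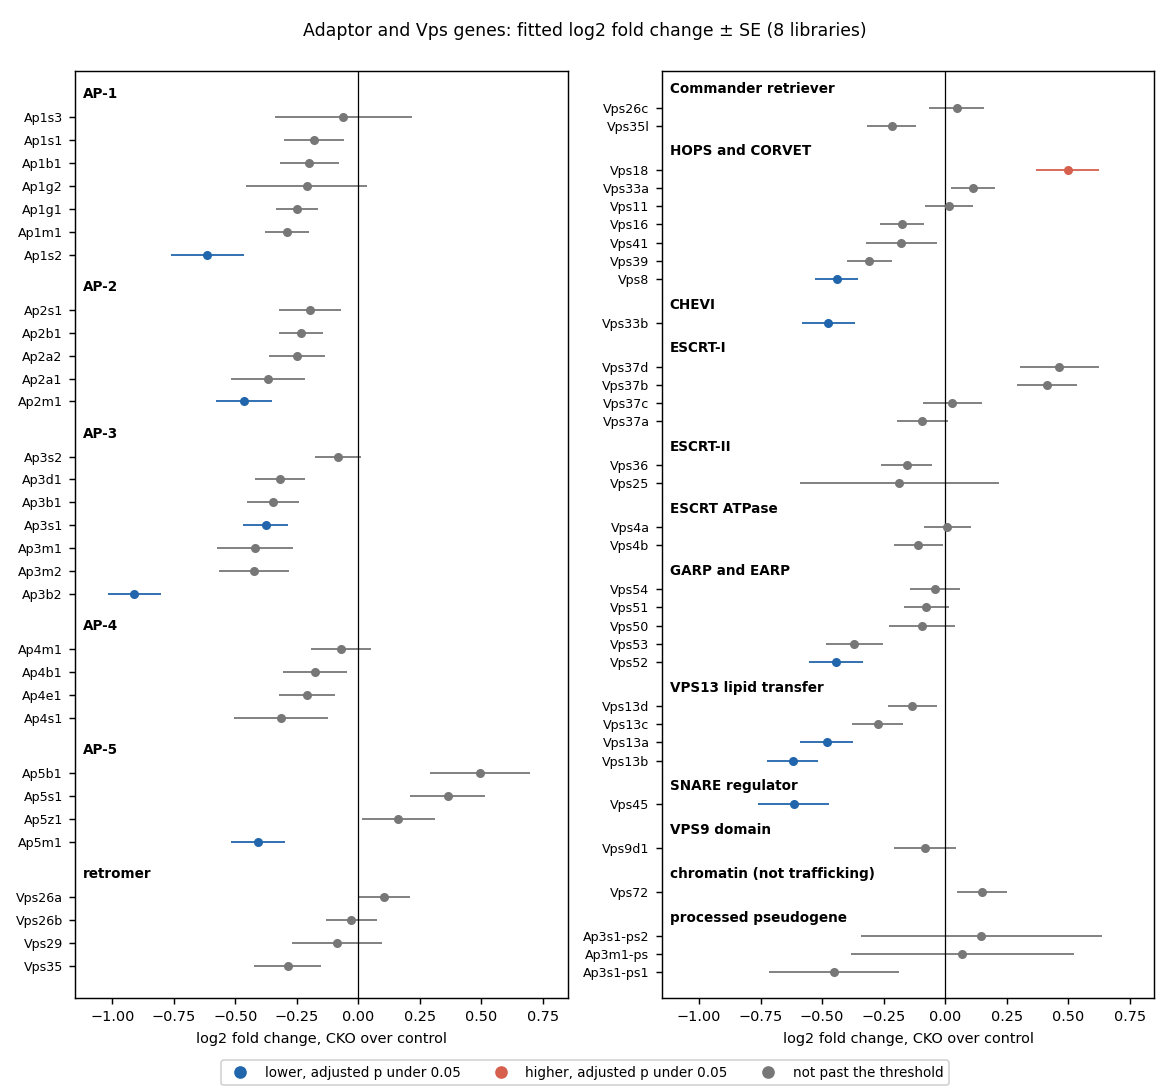
Fitted log2 fold change of CKO over control (x axis) with its SE for each of the 64 tested members, grouped by complex; blue points were called lower, the red point higher and grey points were not called. All 7 AP-3 subunits lie below 0 with Ap3b2 farthest left at -0.91, while 3 of 4 AP-5 subunits and 3 of 4 Vps37 genes lie above 0. Of all genes tested, 53.1% were fitted below 0.

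Values by library split the contrast that chose the members, so they are a description. The median over members of a library's log2 level against the control mean was -0.20, -0.17, -0.22 and -0.18 in CKO replicates a to d. In the controls, whose own mean is the reference, it was -0.02, 0.01, 0.02 and 0.04, without overlap between genotypes. The same median over all genes lay between -0.04 and 0.04 in the 8 libraries. Calls varied when a library was left out: 18 members were called lower without control c, 2 without control d and 3 without control b. Of all genes, 7.02%, 0.807% and 1.22% were called lower in the same fits. Ap3b2 and Vps13b were called in all 8 such fits and Vps8 was lost without control d alone. The other 9, Vps18 among them, were lost without control b and also without control d. Only 4 members differed by more than 1.5-fold: Ap3b2, Vps13b, Vps45 and Ap1s2, at 53.2%, 65.1%, 65.3% and 65.4% of the control level.

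AP-3 had the lowest median fold change of the 5 adaptors. All 7 of its subunits were fitted below 0 (median -0.38), beside 53.1% of all genes. Of the 7, 2 were called lower and 5 had every CKO library below every control, beside 4.01% and 7.38% of all genes. Ap3b2 encodes the beta subunit of the AP-3 form known from neurons, where it serves synaptic vesicle proteins. It had 52.4, 47.9, 53.6 and 50.9 CPM in control replicates a to d and 26.7, 27.8, 23.3 and 31.2 CPM in CKO replicates a to d. The highest CKO library was well below the lowest control, and the log2 fold change was -0.91 ± 0.11, with -0.90 in replicates a and b and -0.90 in c and d. Ap3b1, the ubiquitous beta subunit, went from 71.6 ± 8.61 CPM in controls to 56.2 ± 2.87 CPM in CKO without overlap. As a share of the 2 beta subunits, in CPM per kilobase of exon, Ap3b2 made up 34.2% ± 3.34 in controls (34.8%, 32.8%, 38.6% and 30.8% in replicates a to d) and 25.9% ± 2.44 in CKO (27.1%, 25.8%, 22.6% and 28.2%; SD, n = 4 each). The lowest control share was above the highest CKO share.

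The medium subunits, which read tyrosine-based sorting signals, included Ap3m1, the most abundant AP-3 subunit per length. Its CPM was 101, 109, 169 and 128 in control replicates a to d and 108, 90.7, 80.7 and 95.4 in CKO replicates a to d. Control c stood highest and control a fell below CKO a, so the groups overlapped; the log2 fold change was -0.42 ± 0.16. The gene shares 29.8% of its exon bases with Vcl on the opposite strand, and whether the counting used strand is not given in the sources used here. Ap3m2, its relative known from neurons, went from 9.57 ± 0.887 to 7.14 ± 0.604 CPM without overlap (-0.42 ± 0.14), and its share of the medium subunits was 10.74% in controls and 10.65% in CKO on average. The delta subunit Ap3d1 had 133 ± 13.6 and 107 ± 5.92 CPM (-0.32 ± 0.10) and the small subunit Ap3s1 39.9 ± 3.01 and 30.7 ± 0.957 CPM (-0.38 ± 0.09), both without overlap. Ap3s2, the other small subunit, had the value nearest to 0 of the complex (-0.08 ± 0.09). Of the processed pseudogenes, which may share reads with their parent genes, Ap3s1-ps1 was the highest. It had 2.87, 2.16, 3.36 and 2.45 CPM in the controls and 1.89, 2.66, 1.90 and 1.57 CPM in the CKO libraries (-0.45 ± 0.26); control b lay below CKO b, so the groups overlapped. Ap3m1-ps and Ap3s1-ps2 stayed under 1 CPM in all 8 libraries.

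AP-2, the clathrin adaptor of endocytosis, was the most highly expressed complex per length. All 5 of its subunits were fitted below 0 (median -0.25), beside 53.1% of all genes. Ap2m1, the medium subunit, had 228, 263, 251 and 262 CPM in control replicates a to d and 181, 220.2, 162 and 168 CPM in CKO replicates a to d. CKO b came closest to the controls but stayed below control a, and the log2 fold change was -0.46 ± 0.12. The beta subunit Ap2b1 also did not overlap (143 ± 5.74 CPM in controls and 122 ± 7.24 CPM in CKO; -0.23 ± 0.09). The alpha subunits Ap2a1 (-0.37 ± 0.15) and Ap2a2 (-0.25 ± 0.11) and the small subunit Ap2s1 (-0.20 ± 0.13) overlapped. In Ap2a1, control c was the lowest library of all at 115 CPM, against 203, 217 and 175 CPM in controls a, b and d. The gene shares 16.7% of its exon bases with Fuz on the opposite strand. Without control c, Ap2a1 and Ap2a2 were among the 18 members called lower.

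AP-1, which carries cargo between the trans-Golgi network and endosomes, had all 7 tested subunits below 0 (median -0.21), beside 53.1% of all genes. The small subunit Ap1s2, an X-linked gene, had 21.7, 26.7, 25.1 and 36.6 CPM in control replicates a to d and 16.4, 17.5, 21.5 and 16.2 CPM in CKO replicates a to d. Control a and CKO c nearly met, control d stood above the other controls, and the log2 fold change was -0.61 ± 0.15. Ap1m1, the medium subunit and the most abundant of the complex, had 79.9, 79.2, 74.2 and 80.6 CPM in controls and 61.2, 67.1, 60.4 and 67.9 CPM in CKO libraries. Its groups did not overlap (-0.29 ± 0.09). Ap1g1 (-0.25 ± 0.09), Ap1b1 (-0.20 ± 0.12) and Ap1s1 (-0.18 ± 0.12) overlapped, and Ap1g1 shares 18.7% of its exon bases with Gm17344 on the opposite strand. Ap1g2 and Ap1s3, with 3.91 ± 0.910 and 1.63 ± 0.450 CPM in controls, were low and had wide errors (-0.21 ± 0.25 and -0.06 ± 0.28).

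Ap1m2 encodes the medium subunit of the AP-1 form of polarized epithelia, and it lay just inside the rule: 4 libraries reached 10 counts, and no row with a matching symbol lay outside it. Its counts were 27, 2, 37 and 0 in control replicates a to d and 0, 18, 14 and 2 in CKO replicates a to d, which gives no difference between genotypes to describe. The 3 libraries with the highest Ap1m2 CPM, control a, control c and CKO b, were also the 3 with the highest CPM of Krt5, Krt14 and Trp63, genes of surface epithelium chosen after the values were seen. Krt5 had 49, 3.22, 66.5 and 3.15 CPM in control replicates a to d and 9.87, 33.3, 4.48 and 10.2 CPM in CKO replicates a to d. The summed mesenchyme and erythroid markers were also highest in control a, control c and CKO b. How far any of these cell types accounts for Ap1m2 was not tested.

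AP-4 and AP-5 are adaptors that do not use clathrin. Of all genes 53.1% were fitted below 0 and 10.5% were called in either direction. AP-4, whose loss causes a hereditary spastic paraplegia in humans, had 4 of 4 subunits fitted below 0 and none past the threshold (median -0.19). Its small subunit Ap4s1, the most abundant per length, had 17.2, 15.5, 25.4 and 18.1 CPM in controls and 18.3, 17.7, 11.8 and 14.1 CPM in CKO libraries. Its log2 fold change was 0.12 in replicates a and b and -0.70 in c and d, opposite in sign. Ap4e1 (-0.21 ± 0.11), Ap4b1 (-0.18 ± 0.13) and Ap4m1 (-0.07 ± 0.12) had values nearer to 0. Ap4b1 shares 82.4% of its exon bases with another annotated gene, Gm43064, and Ap4m1 shares 28.1% with Taf6 and Mcm7 on the opposite strand, so both counts are uncertain.

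AP-5 had 3 of 4 subunits fitted above 0, none of them past the threshold, and 1 called lower (median 0.26). Over all genes 4.01% were called lower and 53.1% were fitted below 0. Ap5b1, the beta subunit, had 3.56, 3.97, 2.82 and 2.70 CPM in control replicates a to d and 4.09, 5.20, 3.81 and 5.0 CPM in CKO replicates a to d; only CKO c lay below control b. Ap5s1, the small subunit, had 5.89, 7.19, 5.87 and 5.19 CPM in controls and 8.19, 8.26, 7.85 and 6.65 CPM in CKO libraries, with CKO d below control b. Their log2 fold changes, 0.49 ± 0.20 and 0.36 ± 0.15, did not pass the threshold. Ap5z1, the zeta subunit, had 13, 12.6, 10.5 and 14.8 CPM in controls and 11.8, 13.1, 17 and 15.4 CPM in CKO libraries, with the groups interleaved (0.16 ± 0.15; -0.06 in replicates a and b). Ap5m1 went the other way, from 18.8 ± 1.29 CPM in controls to 14.2 ± 0.689 CPM in CKO without overlap (-0.41 ± 0.11).

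**Figure D2:**
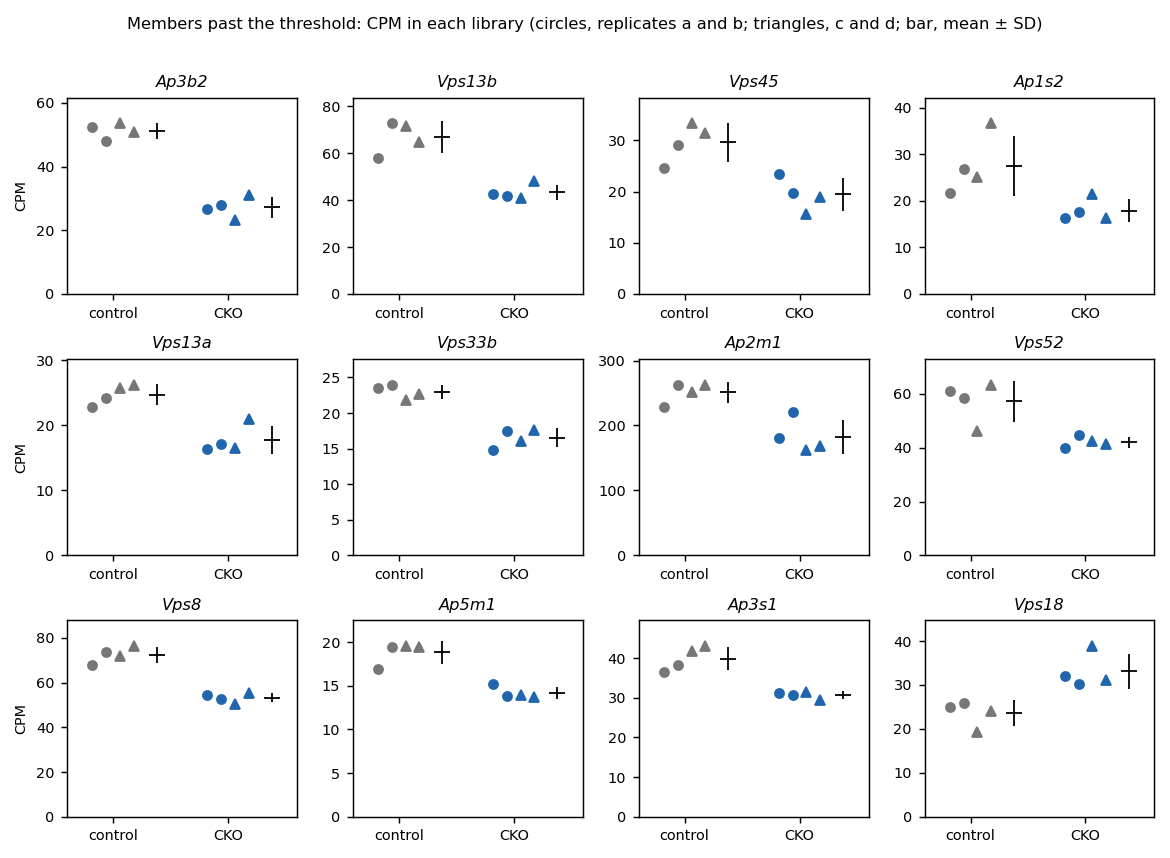
CPM (y axis, from 0) in each of the 8 libraries for the 12 members past the threshold; grey points are controls, blue points CKO, circles replicates a and b, triangles c and d, and bars give the mean and SD of 4. Every CKO library is below every control in 11 panels, with Ap1s2 the narrowest gap, and above every control in the Vps18 panel.

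Among the Vps genes, 24 of 34 were fitted below 0, 6 were called lower and 1 higher. The shares of all genes were 53.1%, 4.01% and 6.5%. The VPS13 proteins, which bridge organelles and pass lipids between them, had 4 of 4 genes below 0 (median -0.38). Vps13b, whose human counterpart is mutated in Cohen syndrome, had 57.9, 72.7, 71.4 and 64.7 CPM in control replicates a to d and 42.5, 41.9, 41.1 and 48.1 CPM in CKO replicates a to d. The groups were clearly apart, and the log2 fold change was -0.62 ± 0.10, similar in both pairs of replicates (-0.65 and -0.57). Vps13a, mutated in chorea-acanthocytosis, had 22.8, 24.2, 25.7 and 26.3 CPM in controls and 16.4, 17.1, 16.5 and 20.9 CPM in CKO libraries. CKO d stood above the other CKO libraries but under every control (-0.48 ± 0.11). Vps13c (-0.27 ± 0.10) and Vps13d (-0.13 ± 0.10) overlapped.

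Vps45 encodes the Sec1/Munc18 protein that acts with the endosomal SNARE syntaxin 16. Its CPM was 24.5, 29.2, 33.4 and 31.5 in control replicates a to d and 23.4, 19.7, 15.7 and 19 in CKO replicates a to d. CKO a was close to control a, and the difference was -0.34 on the log2 scale in replicates a and b and -0.86 in c and d (-0.62 ± 0.14 in the joint fit).

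The Sec1/Munc18 proteins of the late endosome split by paralog. Vps33b, which works with VIPAS39 in the CHEVI complex and is mutated in arthrogryposis, renal dysfunction and cholestasis syndrome, had 23.5, 24, 21.8 and 22.7 CPM in controls and 14.8, 17.5, 16.1 and 17.7 CPM in CKO libraries. The groups did not overlap (-0.47 ± 0.11). Vps33a, the subunit of HOPS and CORVET, was fitted above 0 (45 ± 1.85 and 48.6 ± 2.67 CPM; 0.11 ± 0.09). Vps33b was 41.4% ± 1.19 of the pair in controls and 31.9% ± 2.28 in CKO, in CPM per kilobase (SD, n = 4 each). Shares of 41.7%, 41.6%, 39.7% and 42.6% in control replicates a to d stood above 29.9%, 34.8%, 30.3% and 32.7% in CKO replicates a to d.

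HOPS and CORVET tether late and early endosomes through a shared core of Vps11, Vps16, Vps18 and Vps33a. The core subunit and RING-domain protein Vps18 was the member called higher: 25, 25.8, 19.2 and 24 CPM in control replicates a to d and 32.1, 30.3, 38.9 and 31.2 CPM in CKO replicates a to d. All CKO libraries lay above the controls, with CKO c the highest, and the log2 fold change was 0.50 ± 0.13 (0.27 in replicates a and b, 0.74 in c and d). Vps16, the most abundant subunit per length, had 51.7, 58.9, 59.6 and 60.1 CPM in controls and 49.5, 51.9, 49.1 and 53.4 CPM in CKO libraries, and control a lay among the CKO values (-0.18 ± 0.09). Vps11 had a value within its error of 0 (0.01 ± 0.10). The CORVET subunit Vps8 went from 72.4 ± 3.54 to 53.3 ± 2.10 CPM without overlap (-0.44 ± 0.09), and of the HOPS subunits Vps39 did not overlap (-0.31 ± 0.09) and Vps41 did (-0.18 ± 0.14). Vps8 held 35.9% ± 3.36 of the summed level per kilobase of Vps8, Vps39 and Vps41 in controls and 32.3% ± 1.21 in CKO (SD, n = 4 each). Control c, at 30.9%, fell within the CKO range of that share.

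**Figure D3:**
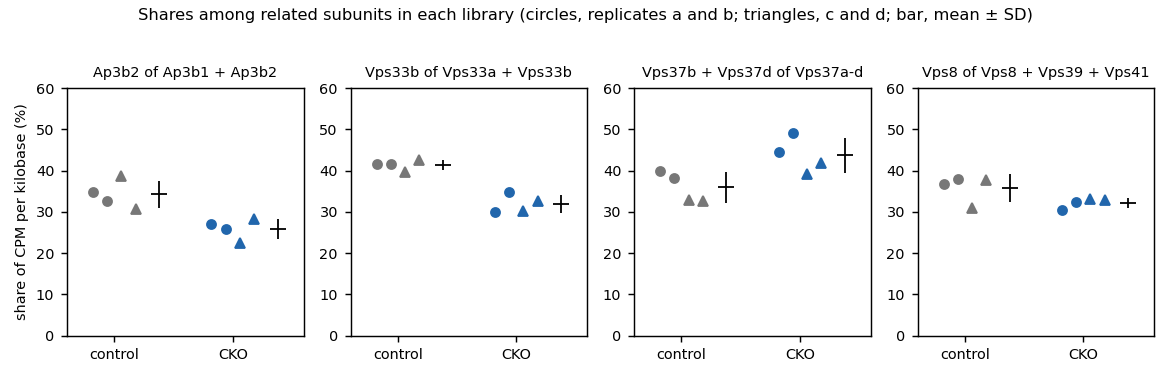
Share of CPM per kilobase (y axis, percent, from 0) held by one member among related subunits in each library; grey points are controls, blue points CKO, circles replicates a and b, triangles c and d, and bars give the mean and SD of 4. Ap3b2 and Vps33b have lower shares in every CKO library, Vps37b with Vps37d has a higher mean share in CKO with overlap, and Vps8 overlaps through control c.

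The Vps37 genes encode interchangeable subunits of ESCRT-I, which sorts ubiquitinated cargo into multivesicular bodies. Vps37d had 6.92, 5.69, 5.11 and 5.15 CPM in control replicates a to d and 6.98, 8.99, 7.23 and 8.12 CPM in CKO replicates a to d, just without overlap. Vps37b had 14.3, 12.3, 8.77 and 9.49 CPM in controls and 15.8, 16.3, 13.4 and 13.4 CPM in CKO libraries, and control a lay above CKO c and CKO d. Both were fitted above 0 (0.46 ± 0.16 and 0.41 ± 0.12) and neither passed the threshold; Vps37b shares 42.5% of its exon bases with genes of the opposite strand, Hip1r among them. Vps37a, the most abundant of the 4 per length, had 42.7, 45.8, 46.9 and 49.3 CPM in controls and 40.9, 34.7, 52 and 46.9 CPM in CKO libraries, which lay on both sides of the controls (-0.09 ± 0.10), and Vps37c was level (0.03 ± 0.12). Together Vps37b and Vps37d made up 36.0% ± 3.72 of the 4 genes in controls and 43.7% ± 4.20 in CKO (SD, n = 4 each). Control a (39.97%) stood above CKO c (39.29%), so these shares overlapped.

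Further along the ESCRT pathway no member passed the threshold, beside 10.5% of all genes. The 2 ESCRT-II genes had a median of -0.17, beside -0.18 over all members. Vps36 of ESCRT-II had 34.7, 33.4, 41.4 and 33.2 CPM in controls and 30.6, 32.5, 30.0 and 34.8 CPM in CKO libraries (-0.16 ± 0.10), with overlap. Vps25, its partner, was listed at 0.664 ± 0.243 CPM in controls; the annotated gene shares 67.2% of its exon bases with Ramp2, and its level and fold change (-0.19 ± 0.40) are uncertain. The ATPase genes Vps4a and Vps4b, which disassemble ESCRT-III, had log2 fold changes of 0.0082 ± 0.10 and -0.11 ± 0.10. Vps4a had 40.9, 40.7, 32.6 and 40.9 CPM in controls and 40.8, 40.3, 36.5 and 38.3 CPM in CKO libraries, and control c was the lowest of the 8. Vps28 of ESCRT-I was not analysed here.

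Retromer, which returns receptors from endosomes to the Golgi and the cell surface, had no member past the threshold, beside 10.5% of all genes. Vps35, its scaffold and one of the most abundant members, had 141, 165, 253 and 210.2 CPM in control replicates a to d and 164, 142, 150.3 and 161 CPM in CKO replicates a to d. The controls spread widely, with b, c and d above every CKO library, b only just, and a below every one of them, and the log2 fold change was -0.29 ± 0.14. Vps29 was 0.33 in replicates a and b and -0.47 in c and d (-0.09 ± 0.18 jointly). Vps26a (0.11 ± 0.11) and Vps26b (-0.03 ± 0.10) had values within about an SE of 0. Of the retriever, a related complex, Vps35l was -0.22 ± 0.10 and Vps26c 0.05 ± 0.11. Vps26c had 29.5, 32.7, 36.8 and 29.6 CPM in controls and 34.8, 33.1, 29.2 and 35.8 CPM in CKO libraries, fully interleaved.

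GARP and EARP tether endosome-derived vesicles at the Golgi and at recycling endosomes and share Vps51, Vps52 and Vps53. All 5 genes were fitted below 0 and 1 was called lower, beside 53.1% and 4.01% of all genes. Vps52 had 61, 58.6, 46.3 and 63.4 CPM in control replicates a to d and 39.8, 44.6, 42.6 and 41.3 CPM in CKO replicates a to d. Control c was low but still above CKO b (-0.44 ± 0.11), and Vps52 was called in 1 of the 8 fits without a library, the one without control c. Vps53 (-0.37 ± 0.12) overlapped through control c, at 39.6 CPM against 56.2, 55.1 and 55.2 CPM in controls a, b and d. Vps51 (-0.08 ± 0.09), the GARP subunit Vps54 (-0.04 ± 0.10) and the EARP subunit Vps50 (-0.09 ± 0.13) were close to 0, and Vps51 shares over 10% of its exon bases with other genes, Tm7sf2 among them. Of the remaining genes, Vps9d1, which has the VPS9 domain of Rab5 activators, had 32.6, 33.4, 26.8 and 30.9 CPM in controls and 23.5, 30.2, 32.9 and 30.2 CPM in CKO libraries (-0.08 ± 0.13), interleaved. Vps72 shares the name but encodes a subunit of the SRCAP chromatin remodeller. It had 30.5, 32.4, 28.3 and 31.6 CPM in controls and 30.5, 33.5, 38.5 and 33.8 CPM in CKO libraries (0.15 ± 0.10), with overlap.

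Levels in control lenses spanned a wide range. Of the 62 protein-coding members, 54 had a mean above 10 CPM in controls, with a median of 40.1 CPM and a highest value of 250.9 CPM for Ap2m1. Per kilobase of exon, AP-2 led with Ap2m1 at 60.9 ± 3.95, Ap2s1 at 53 ± 4.90 and Ap2a1 at 41.3 ± 10.4 CPM per kilobase (SD, n = 4). Ap2m1 and Ap2s1 differed by less than the sum of their SDs, as did Ap2s1 and Ap2a1. Ap2b1 (16.3 ± 0.656) and Ap2a2 (15 ± 1.74) were lower than these 3 and alike. Ap1m1 (24.6 ± 0.904) and Vps35 (21.6 ± 5.56) led the other complexes, and the mean of Ap1m1 lay within 1 SD of that of Vps35. The lowest protein-coding members were Ap1m2 (0.161 ± 0.171) and Vps25 (0.404 ± 0.148); the VPS13 genes, with the longest coding sequences of the group, had between 1.39 and 3.13 CPM per kilobase, and AP-5 between 1.01 and 3.63. The subunit with the highest level was the same in 9 of 13 complexes when the longest transcript replaced the union of exons as the length, and differed for AP-3, HOPS and CORVET, GARP and EARP, and the retriever.

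**Figure D4:**
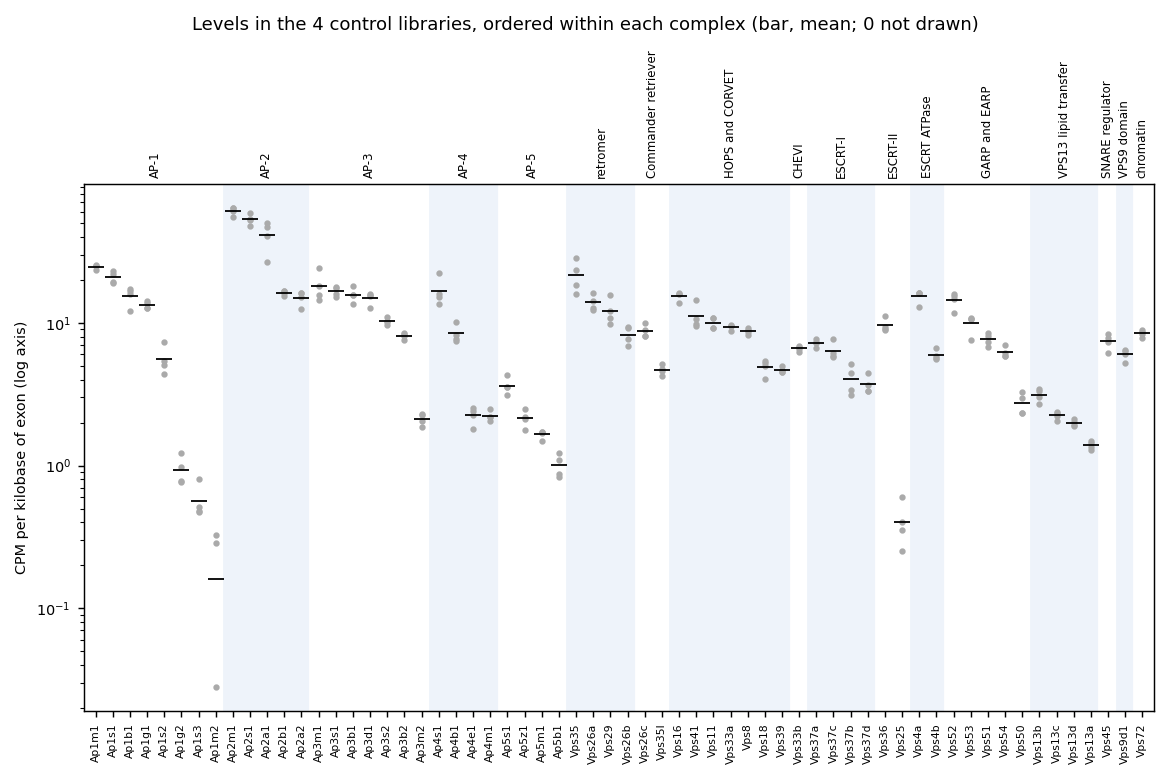
Level in the 4 control libraries in CPM per kilobase of exon (log axis) for the 62 protein-coding members, ordered within each complex; points are libraries, bars the mean of 4, and a library at 0 is not drawn. Ap2m1 is highest with a mean of 60.9 and Ap1m2 is lowest with a mean of 0.161.

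Whether the genotype difference was the same in both pairs of replicates was tested by the interaction of genotype with pair, which the choice of members did not use. By edgeR's quasi-likelihood test 0 of 16241 genes (0%) and 0 members had an adjusted p under 0.05. At an unadjusted p under 0.05 there were 2662 genes (16.4%) and 8 of 64 members: Vps29, Ap4s1, Ap1s1, Ap3m1, Vps35, Ap2s1, Vps45 and Vps41. Without a filter on low counts 918 genes and 2 members passed the adjusted threshold, and without control d 2014 genes and 8 members did, while 0 to 3 genes did when any other library was left out. The signs within each pair come from the contrast that chose the members and are given as a description, with nothing read from the shares of all genes beside them. Member by member, 33 of 64 were below 0 in both pairs, against 30.1% of all genes, 10 were above 0 in both, and 21 had opposite signs. In replicates a and b alone 46 were below 0 (50.3% of all genes) with a median of -0.15, and in c and d alone 41 (51% of all genes) with a median of -0.18.

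The pair of replicates was also tested at equal genotype. In that test 69 genes (0.425%) differed between replicates a, b and c, d at an adjusted p under 0.05 by edgeR's quasi-likelihood test, and 0 of them were members. At an unadjusted p under 0.05 there were 2121 genes (13.1%) and 7 of the 64 members.

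Other genes of the same pathways, 258 tested of 263 listed in 18 groups, had the same median log2 fold change as the members, -0.18. Of the 258 genes 197 were fitted below 0, beside 53.1% of all genes tested. There were 21 called lower and 7 called higher, beside 4.01% and 6.5% of all genes tested, and 230 were not called. With 1 library left out, lower calls ranged from 2 (without control d) to 41 (without control c). In those 2 fits 0.807% and 7.02% of all genes were called lower. Values and adjusted p below are from edgeR's quasi-likelihood test over all genes. Clathrin and its uncoating factors had 8 of 9 genes below 0 (median -0.23), none past the threshold. Of 32 accessory proteins of clathrin adaptors 4 were called lower. Amphiphysin (Amph), which bends membrane and binds AP-2, had 85.4, 82.6, 76.5 and 83.1 CPM in control replicates a to d and 50.1, 55.9, 39.8 and 51.1 CPM in CKO replicates a to d (-0.74 ± 0.11; adjusted p = 0.00249). The epsin Epn3 (-0.72 ± 0.14; adjusted p = 0.0107), the AP-2 associated Necap1 (-0.44 ± 0.10; adjusted p = 0.0166) and the clathrin assembly protein Picalm (-0.34 ± 0.09; adjusted p = 0.0408) were also lower. Of 17 GGA adaptors and sorting receptors, Gga3 (-0.41 ± 0.11) and Vldlr (-0.47 ± 0.09) were called lower.

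The coats of the early secretory pathway leaned the same way. All 14 tested COPI genes and 15 of 16 COPII genes were fitted below 0, beside 53.1% of all genes. Their medians were -0.31 and -0.28. Over all genes tested 4.01% were called lower, the share to set beside each count of calls in these lists. In each list 2 were called lower: Gbf1 (-0.53 ± 0.12), the exchange factor that recruits COPI through Arf1, and Copz2 (-0.42 ± 0.12), and Tfg (-0.39 ± 0.10) and Sec23a (-0.45 ± 0.12) of COPII. The size differed between pairs of replicates: Copb2 was -0.13 in a and b and -0.59 in c and d, while Gbf1 was -0.71 and -0.33. Sec13 changed sign (0.15 and -0.41), and Sec16a did so the other way (-0.29 and 0.20). Of 29 endosomal and Golgi SNARE genes and their regulators 25 were below 0 and 4 were called lower (Stx17, Stx18, Gosr2 and Stxbp3, between -0.52 and -0.39). The TRAPP complexes had 2 of 14 called lower (Trappc2 and Trappc11), the exocyst 1 of 9 (Exoc6), the WASH complex 1 of 5 (Washc4) and the AP-4 and AP-5 partners 1 of 7 (Spg11, which binds AP-5; -0.37 ± 0.09). The conserved oligomeric Golgi complex had 7 of 8 below 0, and the SRCAP complex 6 of 7, none past the threshold.

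Of the 7 genes called higher, 3 belonged to the biogenesis complexes of lysosome-related organelles, the BLOC and HPS proteins. In that list 3 of 13 genes were called higher and 1 lower, beside 6.5% and 4.01% of all genes. Hps6, a BLOC-2 subunit, had 4.43, 3.48, 4.16 and 2.89 CPM in control replicates a to d and 7.29, 6.13, 12.7 and 11.5 CPM in CKO replicates a to d (1.29 ± 0.24; adjusted p = 0.00899). All CKO libraries lay above the controls, c and d more than a and b. Bloc1s4 of BLOC-1 (0.79 ± 0.15; adjusted p = 0.011) and Hps4 of BLOC-3 (0.54 ± 0.12; adjusted p = 0.0188) were higher, and Bloc1s6 of BLOC-1 was lower (-0.47 ± 0.09; adjusted p = 0.0114). In ESCRT-I, Tsg101 was lower (-0.36 ± 0.10) and Ubap1 higher (0.44 ± 0.12), 1 call each way among 21 ESCRT and ALIX genes. Single genes were higher among the retromer partners (Ankrd50, 0.36 ± 0.09), the CCC and Commander genes (Commd5, 0.62 ± 0.12) and the class III phosphoinositide kinase group (Zfyve9, 0.37 ± 0.10). The 16 partners of HOPS, CORVET and CHEVI had 10 genes fitted below 0, beside 53.1% of all genes, and none past the threshold (median -0.16).

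**Figure D5:**
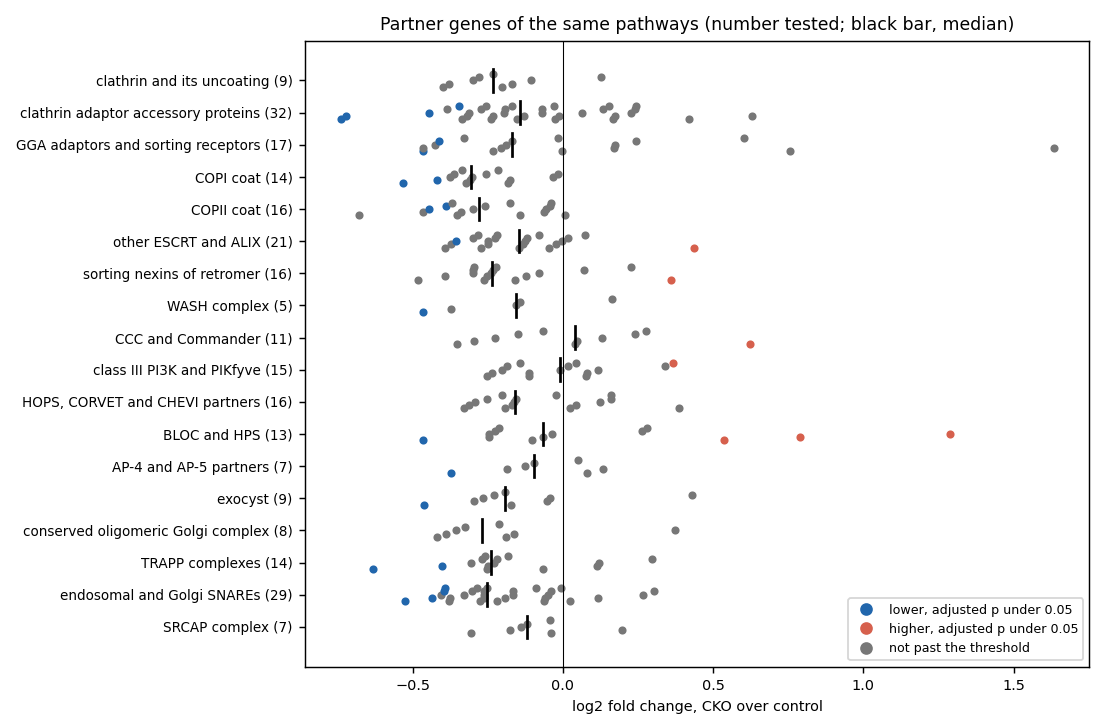
Fitted log2 fold change of CKO over control (x axis) for 258 genes in 18 pathway groups, with the number tested in brackets; each point is a gene, blue called lower, red called higher, grey not called, and black bars are medians. Medians lie below 0 in 17 of the 18 groups, the CCC and Commander genes being the exception at 0.04, and the BLOC and HPS group holds 3 of the 7 genes called higher.

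The transcripts of the members were compared with those of 14034 tested protein-coding genes for features that the rule did not use. For the 61 tested protein-coding members the median coding length was 1947 bases, against 1392 for all. The median length of the longest protein-coding transcript was 3449 against 3182 bases and that of its 3′ untranslated region 1002 against 1136 bases. GC content was alike (50.6% and 50.4%), as was the density of GGACT, a canonical form of the N6-methyladenosine motif, at 1.12 and 1.05 per kilobase of transcript. Across the members, Spearman's rho with the log2 fold change was 0.35 for GC content and -0.27 for coding length (0.11 and 0.05 across all genes), and 0.09 for GGACT density (0.08 across all genes); genes are not independent replicates and these points share the same 8 libraries. With the trends of each library on length and GC content removed, 17 of 61 members were called lower and 1 higher. Of 14034 protein-coding genes 7.89% were called lower, and 54.6% of all calls in that fit were higher. Without that removal, on the same genes, 14 members and 4.9% of genes were called lower, and 59.9% of all calls were higher.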

How the data were processed

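Read counts per Ensembl gene in 8 mouse lens libraries were analysed. The authors deposited raw whole-number counts. The submitters' processing notes name CASAVA, HISAT2, featureCounts and build mm10 without versions. TRIzol extraction and an NEBNext Ultra library kit were used, per the labels' protocols. The annotation release, the strand setting and the handling of reads in overlapping genes were not given in the sources used here. Symbols came from GENCODE M21, which held 42548 of the 43432 IDs, and the 884 others took at most 0.105% of any library. Library totals were between 19110170 and 56098211 counts. At this depth, counting error matters mainly for members under a few CPM.

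Counts were filtered with filterByExpr (minimum count 10, minimum total 15), which left 16241 genes, scaled by TMM and tested with edgeR 4.0.16 in R 4.3.3 (robust quasi-likelihood F-test, terms for genotype and for replicates a and b against c and d, Benjamini-Hochberg adjustment over all genes, threshold 0.05). Records of a, b and of c, d are listed separately, but no label calls them batches. The labels do not say that replicates came from separate animals, so p-values measure only the spread between libraries, which may be technical. No library repeated another: within a genotype, chi-square divided by its degrees of freedom was at least 16.5. CPM per kilobase used the union of exons. The code was tested on simulated data. Alternatives were other scalings, no filter, DESeq2 1.42.0, other terms, length and GC correction, each pair of replicates alone and each library left out.

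Members and lists were chosen with earlier results of these data known. Values by library are given for the 8 lowest and 6 highest members by log2 fold change and for the most abundant member of each complex. From each pathway group up to 4 called genes with the smallest p are named.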

Additional observations from a re-analysis of the deposited data

Results flagged for a closer look

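Among 74 groups of 4 values examined (each member reported by library and each share of related subunits, in each genotype), 5 held 1 library apart from the other 3 by Dixon's criterion. Chance gives about 1 in 20 groups. Vps13a stood at 20.9 CPM in CKO d, above the other CKO libraries. Vps4a stood at 32.6 CPM in control c, and its share of Vps4a and Vps4b there was 66%, both below the other controls. Vps16 stood at 51.7 CPM in control a, and Vps8 held a share of 30.9% among Vps8, Vps39 and Vps41 in control c, again below the other controls. Without control c the log2 fold change of Vps4a was -0.058 in place of 0.0082.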

How the results depend on the processing

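Scaling by relative log expression or the upper quartile changed the sign of none of the 64 tested members and left 11 called lower and 1 higher. The median of the members was -0.18 in the joint fit, -0.15 from replicates a and b alone (-0.14 for the partner genes) and -0.22 with length and GC trends removed. Members called lower were 17 with those trends removed and 2 from replicates c and d alone. Members called higher were 2 with DESeq2 and 0 in either pair of replicates alone. Of all genes 990 were called lower with DESeq2, 1107 with the trends removed and 183 from replicates c and d alone. Partner genes called lower and higher were 35 and 11 without a filter on low counts, 38 and 11 with DESeq2, and 50 and 12 with the trends removed, and 9 were called lower from replicates c and d alone. Without a filter the interaction called 918 genes and 2 members, and the difference between pairs of replicates 678 genes. With 1 library left out at a time, genes called lower ranged from 131 to 1140 and higher from 386 to 1410, members lower from 2 to 18 and higher from 0 to 2, partner genes lower from 2 to 41 and higher from 2 to 11, and the members' median from -0.21 to -0.15. Over the same fits the interaction called 0 to 2014 genes and 0 to 8 members, and the difference between pairs of replicates 17 to 655 genes. The lowest counts of lower calls came without control d and the highest without control c, and the cause was not tested. The subunit with the highest level was the same in 9 of 13 complexes by the longest transcript and in 12 without control c.

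Of the 64 members 11 changed sign in replicates a and b alone and 10 in c and d alone. Among those reported by library the changes of sign were these. Vps4a was -0.0037 on protein-coding genes alone (a fit added after the data were seen), -0.027 in replicates a and b, -0.021 without CKO d and from -0.058 (without control c) to 0.074 over the fits without 1 library. Ap5z1 was -0.058 and Ap4s1 0.12 in replicates a and b. Vps37a was 0.080 and Vps9d1 0.17 in replicates c and d, Vps9d1 ranged from -0.16 to 0.028 (without CKO a) and Vps26c from -0.0094 (without CKO d) to 0.13 with 1 library left out. The sign of Vps11, Vps37c and Vps54 changed with the length and GC trends removed.

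The labels do not say whether libraries of the same letter belong together. Same-letter deviations from the genotype means correlated at -0.06, 0.09, -0.19 and 0.28. Such correlations cannot decide whether the letters pair the libraries. With the letter as a replicate block, 160 genes were called lower and 505 higher, with 2 members lower and 0 higher and 3 partner genes each way. Of the controls, d alone correlated best with the CKO library of its own letter. Depth limited Ap1m2, Vps25, Ap1s3 and the pseudogenes, all with means under 3 CPM.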

Other observations

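Lrp2, which encodes the endocytic receptor megalin and belongs to the listed sorting receptors, was picked out after its values were seen. It had 2.98, 3.09, 2.56 and 2.21 CPM in control replicates a to d and 9.45, 2.46, 17.5 and 5.31 CPM in CKO replicates a to d, with a log2 fold change of 1.63 ± 0.56 that did not pass the threshold (adjusted p = 0.114 by edgeR's quasi-likelihood test). The summed retina markers were also highest in CKO c, at 139.5 CPM. Control a came next at 64.8 CPM, although its Lrp2 was 2.98 CPM. Pigment cell markers summed to 7.0, 3.18, 5.36 and 6.57 CPM in control replicates a to d. In CKO replicates a to d they summed to 23.0, 4.23, 18.8 and 13.4 CPM. The part of either cell type in the Lrp2 values was not tested. CKO b lay within the control range of Lrp2.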
